A study of Mus musculus with 4 samples.

Results

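The genes described here are 10 surface proteins of T cells: the receptors Lag3, Tigit, Havcr2, Cd160, Cd101, Cd226 and Cd96, the ligand Cd200, and the nucleotide-cleaving enzymes Entpd1 and Nt5e. They were chosen by name, and all 10 symbols matched 1 row each among the 50600 genes measured. RNA was sequenced from 4 libraries of 1 group, T cells of C57BL/6NJ mice described as primary cells, with no second strain, genotype or treatment in the labels. The count files' headers name the cells as Th0, activated, sorted and taken at 72 h, and a protocol linked in the labels refers by its name to CD4 T cell differentiation. No resting or chronically stimulated sample was used here, so a level cannot be read as a change. All 4 libraries carry the same donor entry, sex and age were not recorded, and the labels do not state if the replicates were separate mice or cultures. Sex-linked RNA parted the libraries: Xist, the X-inactivation RNA, stood at 278.4 and 315.9 TPM (transcript level scaled for gene length and library total) in replicates 1 and 2 and at 1.25 and 0.586 in replicates 3 and 4, and the Y-linked Ddx3y ran the other way, at 0.153 and 0.0739 against 41.2 and 34.0. This is a female pattern in replicates 1 and 2 and a male pattern in replicates 3 and 4, so not all 4 came from the same mouse. Whether the libraries within each pair came from separate mice is not stated. With 1 group and independence not stated in full, every p-value and SD describes these 4 libraries only.

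Several of these proteins are grouped as exhaustion-type receptors because they accumulate together on T cells under chronic stimulation, although many also appear during ordinary activation. Tigit, Cd226 and Cd96 bind the same family of adhesion ligands, the nectins and nectin-like proteins such as Pvr, and Tigit opposes the activating receptor Cd226. Entpd1 (CD39) cleaves extracellular ATP and ADP to AMP, and Nt5e (CD73) converts AMP to adenosine, which restrains T cells mainly through the receptor encoded by Adora2a.

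Libraries held between 34978213 counts (replicate 1) and 118937382 counts (replicate 2), with 42274502 in replicate 3 and 95356041 in replicate 4. All 16 genes of a T cell identity list stood at 1 TPM or more in every library, led by Trac and Trbc2 at 1892 ± 92.1 and 1567 ± 49.6 TPM (SD, n = 4). Outside the regulatory T cell list, markers of other cell types all stood below the T cell identity genes. Several were still above the median of 1.43 TPM over all protein-coding genes. The 2 most abundant of each list were Cd8b1 (21.4 TPM) and Eomes (4.39) for the CD8 lineage, with Cd8a at 0.267, Nkg7 (30.9) and Klrd1 (2.93) for NK, NKT and gamma-delta T cells, and Cd79b (2.06) and Igkc (1.61) for B cells. They were Cd68 (13.5) and Adgre1 (1.48) for macrophages, Batf3 (12.1) and Zbtb46 (2.56) for dendritic cells, and Pecam1 (20.5) and Eng (7.81) for stroma and endothelium. In the list of 8 neutrophil, mast cell and basophil genes, 7 had no count in any library, and the remaining one, Mpo, stood at 0.0549 TPM. Regulatory T cell markers that activated T cells also express were abundant, with Tnfrsf18 at 1201 ± 77.5 and Il2ra at 485.0 ± 37.1 TPM, whereas the lineage factor Foxp3, named after its values were seen, stood at 2.51, 1.66, 2.09 and 1.50 TPM in replicates 1 to 4.

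The 10 genes are described in 3 ranges of level, divided at 50 and 1 TPM. These ranges are not separate groups in the data. The widest mean log2 difference between neighbouring genes lay inside the middle range, at 2.43 for Nt5e minus Cd101. At the 50 TPM division it was 1.98 (Cd96 minus Nt5e), and at the 1 TPM division 1.81 (Cd160 minus Entpd1). Cd200, Tigit, Lag3, Cd226 and Cd96 stood above 50 TPM in every library, Nt5e, Cd101 and Cd160 lay lower but above 1 TPM throughout, and Entpd1 and Havcr2 were below 1 TPM in every library. Thus 8 of 10 reached 1 TPM in every library, against 49.9% of the 21764 protein-coding genes. Cd200, Tigit and Lag3 together supplied between 82.9% and 84.9% of the summed TPM of the 10 genes, which was 1126, 1276, 1186 and 1194 TPM in replicates 1 to 4. The median of the 10 mean levels was 42.1 TPM, beside 1.43 TPM over all protein-coding genes and 119.4 TPM over 13 genes of the CD28 receptor and B7 ligand families. No member was among the 0.463% of tested genes called more variable between libraries than genes of their level (edgeR).

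**Figure D1:**
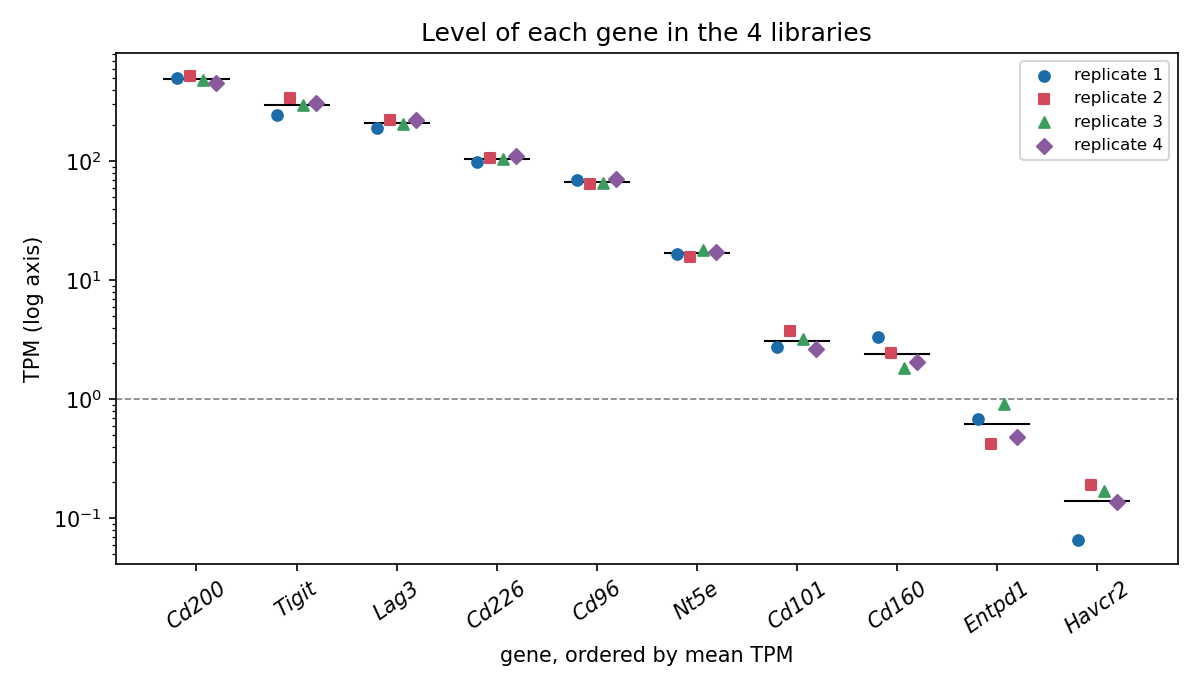
TPM (log axis) of each gene in replicates 1 to 4, with a bar at the mean and a dashed line at 1 TPM. The libraries of neighbouring genes in this order do not overlap except for Cd101 and Cd160, and Entpd1 and Havcr2 lie below 1 TPM in every library.

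Promoter stretches of 3 members are printed because these genes mark the ends of the range: Cd200 and Tigit had the 2 highest levels and Havcr2 the lowest. Each is the 250 bases before the RefSeq start of the gene on GRCm38.p6, in the direction of the gene, at chr16:45409054-45409303 (minus strand) for Cd200, chr16:43664185-43664434 (minus strand) for Tigit and chr11:46454681-46454930 (plus strand) for Havcr2. Capitals mark matches on either strand to the NFAT core GGAAA, the AP-1 motif TGANTCA, the Nr4a motif AAAGGTCA or the Runx core TGTGGT, factors that act in activated T cells.
Cd200: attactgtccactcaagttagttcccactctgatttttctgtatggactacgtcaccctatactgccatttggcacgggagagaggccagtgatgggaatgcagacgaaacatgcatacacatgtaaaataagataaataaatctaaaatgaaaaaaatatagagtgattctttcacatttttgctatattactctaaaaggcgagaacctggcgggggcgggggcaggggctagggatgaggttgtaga
Tigit: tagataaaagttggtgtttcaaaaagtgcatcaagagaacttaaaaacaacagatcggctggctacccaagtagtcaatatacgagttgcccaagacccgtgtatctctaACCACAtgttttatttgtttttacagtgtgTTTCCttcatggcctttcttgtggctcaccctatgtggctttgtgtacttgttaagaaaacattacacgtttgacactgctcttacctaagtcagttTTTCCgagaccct
Havcr2: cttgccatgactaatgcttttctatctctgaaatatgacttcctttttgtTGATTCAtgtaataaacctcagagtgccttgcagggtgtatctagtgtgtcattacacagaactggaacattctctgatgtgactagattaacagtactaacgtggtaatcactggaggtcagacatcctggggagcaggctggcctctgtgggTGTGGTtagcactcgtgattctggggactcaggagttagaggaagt
The Tigit stretch held 2 NFAT cores and 1 Runx core, the Havcr2 stretch 1 AP-1 motif and 1 Runx core, and the Cd200 stretch none of the 4. Over all 32851 windows of this length in the table, 55.6% held an NFAT core, 6.75% an AP-1 motif, 1.34% the Nr4a motif and 14.05% a Runx core. Matches of this kind describe the letters only, and the libraries hold no measurement of binding at these sites. RefSeq windows were found for 8 of the 10 genes.

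Cd200, an immunoglobulin-family ligand that signals through Cd200r1 on other leukocytes, was the most abundant member (ENSMUSG00000022661.14, mm10, chromosome 16, 45382135 to 45409053, minus strand, 7 merged exons). It stood at 499.9, 518.4, 486.3 and 457.6 TPM in replicates 1 to 4, or 490.6 ± 25.6 (SD, n = 4), above 98.8% of protein-coding genes. The 4 libraries were close to each other, the highest being 1.13 times the lowest. Its receptor Cd200r1 stood at 1.39, 1.52, 1.10 and 0.882 TPM. Ligand RNA thus exceeded receptor RNA by 8.56 ± 0.25 on the log2(TPM + 0.1) scale (SD, n = 4) in each of the 4 (exact sign-flip test, p = 0.125 and adjusted p = 0.125).

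That test, an exact two-sided sign-flip permutation over libraries, was run on 14 gene pairs. With 4 libraries it cannot give a p below 0.125, so no pair can pass 0.05, and all 14 pairs had that value before and after Benjamini-Hochberg adjustment. Each pair below kept 1 direction in 4 of 4 libraries. Differences are of log2(TPM + 0.1), which understates the contrast when a gene is low.

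Among the receptors for nectin-type ligands, the inhibitory Tigit was the most abundant (ENSMUSG00000071552.4, chromosome 16, 43648861 to 43664184, minus strand, 4 merged exons). It stood at 247.1, 341.5, 298.4 and 310.1 TPM in replicates 1 to 4, a mean of 299.3 ± 39.3 (SD, n = 4). Replicate 1 was lowest and replicate 2 highest, by 1.38 times. Cd226, the activating receptor for the same ligands (ENSMUSG00000034028.15, chromosome 18, 89197431 to 89270201, plus strand), stood at 97.8, 106.5, 105.3 and 110.7 TPM. Its libraries were all below those of Tigit, and Cd226 minus Tigit was -1.50 ± 0.14 (SD, n = 4; exact sign-flip p = 0.125). Cd96, which also binds Pvr (ENSMUSG00000022657.9, chromosome 16, 46035657 to 46120251, minus strand, 15 merged exons), stood at 69.2, 63.8, 65.2 and 70.6 TPM. Its libraries lay below all those of Cd226, with Cd226 minus Cd96 at 0.64 ± 0.10, and Cd96 minus Tigit was -2.14 ± 0.24 (exact sign-flip p = 0.125 for each). The sizes of the gaps to Tigit depend on the scaling for length, since the exonic length is 963 bases for Tigit, 2357 for Cd226 and 2184 for Cd96. With CPM (counts scaled to the library total, without length), Cd226 minus Tigit was -0.21 and Cd96 minus Tigit -0.96.

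The ligands of these receptors were present in the same libraries at lower levels. Pvr, a shared ligand of the 3 receptors, stood at 18.4 ± 1.30 TPM, and Nectin2 at 8.95 ± 1.67 (SD, n = 4). Nectin2 minus Pvr was -1.05 ± 0.23 (exact sign-flip p = 0.125). Cadm1, an adhesion molecule that binds the receptor Crtam, stood at 7.73 ± 1.36 TPM. Of the 8 genes in the nectin list, 4 reached 1 TPM in every library and the median level was 1.96 TPM. Pvrig, another nectin receptor, had a count of 0 in all 4 libraries. Reads mapping to several places or overlapping several genes were not counted, so this 0 does not show that its RNA was absent.

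Lag3, an inhibitory receptor that binds MHC class II and the secreted protein Fgl1, is structurally related to CD4 and lies next to it (ENSMUSG00000030124.2, chromosome 6, 124904361 to 124911705, minus strand, 9 merged exons). It stood at 188.7, 223.5, 206.6 and 222.4 TPM in replicates 1 to 4, or 210.3 ± 16.3 (SD, n = 4). The libraries differed by at most 1.18 times and none overlapped with those of Tigit above or Cd226 below. Lag3 minus Tigit was -0.50 ± 0.09 (exact sign-flip p = 0.125). This order also rests on the scaling for length, since Lag3 has an exonic length of 2109 bases, and with CPM in place of TPM the difference was 0.63 in favour of Lag3. Cd4, whose gene lies 16139 bases from Lag3 on the same strand, exceeded Lag3 by 2.22 ± 0.10 in 4 of 4 libraries (exact sign-flip p = 0.125). The neighbour on the other side, Ptms, 1975 bases away, stood at 320.5 ± 14.6 TPM.

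Havcr2, which encodes the inhibitory receptor Tim-3, was the least abundant member (ENSMUSG00000020399.14, chromosome 11, 46454935 to 46481255, plus strand, 7 merged exons). It had 2, 19, 6 and 11 counts in replicates 1 to 4, or 0.0651, 0.192, 0.170 and 0.137 TPM. Exact Poisson 95% intervals, which cover counting error only, were 0.00789 to 0.235 TPM in replicate 1 and 0.115 to 0.299 in replicate 2, so the libraries overlapped within counting error. The upper limit was at most 0.370 TPM in any library. Havcr2 did not pass the filter on low counts over the 4 libraries and so was left out of the test of variation. It was tested in edgeR without that filter and without replicate 1, and was not called in either. Lag3 exceeded it by 9.80 ± 0.28 and Pdcd1, the receptor PD-1, by 11.12 ± 0.41 (SD, n = 4; exact sign-flip p = 0.125 for each). One proposed ligand of Tim-3, Lgals9, was abundant at 177.3 ± 9.69 TPM and exceeded Havcr2 by 9.55 ± 0.37 (exact sign-flip p = 0.125). Of the other Tim family genes, Timd2 stood at 1.08 ± 0.398 TPM, and Havcr1 and Timd4 had 0 counts in all libraries.

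Pdcd1 stood at 554.8, 530.9, 515.7 and 492.0 TPM in replicates 1 to 4. Every library was above those of Lag3 and Tigit, by 1.32 ± 0.17 and 0.81 ± 0.24 (SD, n = 4; exact sign-flip p = 0.125 for each). The other most abundant genes of the CD28 and B7 families were Ctla4 at 858.8 ± 22.0 TPM and Btla at 372.8 ± 20.98. In that family list, 11 of 13 genes reached 1 TPM in every library.

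Cd101 and Cd160 were low but detected in every library. Cd101, an immunoglobulin-family receptor of myeloid and T cells (ENSMUSG00000086564.9, chromosome 3, 100993529 to 101029556, minus strand), stood at 2.74, 3.76, 3.20 and 2.66 TPM from 103, 456, 138 and 262 counts. Cd160, a receptor of NK and T cells that binds Tnfrsf14 (ENSMUSG00000038304.14, chromosome 3, 96798763 to 96829351, minus strand), stood at 3.32, 2.43, 1.84 and 2.05 TPM from 99, 234, 63 and 160 counts. Their libraries overlapped, and Cd101 was higher in 3 of 4, by 0.37 ± 0.45, which is within the spread. Tnfrsf14 stood at 56.1, 50.4, 72.6 and 56.5 TPM and exceeded Cd160 by 4.58 ± 0.52 (exact sign-flip p = 0.125). Btla, the other receptor of this ligand, stood far above Cd160, as given above. Exons of Cd160 overlap those of Pdzk1 on the opposite strand by 68 bases. Counting used strand, per the file headers, and Pdzk1 stood at 0.392 TPM.

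The 2 ectonucleotidases stood far apart. Nt5e (ENSMUSG00000032420.8, chromosome 9, 88327197 to 88372092, plus strand, 9 merged exons) stood at 16.8, 15.8, 18.1 and 17.4 TPM in replicates 1 to 4, or 17.0 ± 0.968 (SD, n = 4). Entpd1 (ENSMUSG00000048120.16, chromosome 19, 40612366 to 40741602, plus strand, 17 merged exons) had 43, 85, 66 and 79 counts, or 0.683, 0.418, 0.912 and 0.479 TPM. The groups of libraries did not overlap, and Nt5e exceeded Entpd1 by 4.61 ± 0.38 in 4 of 4 libraries (exact sign-flip p = 0.125). RNA for the enzyme that makes adenosine from AMP was thus the higher one, and RNA for the enzyme that makes AMP from ATP the lower one.

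Entpd1 was higher in replicates 1 and 3, which had the fewest counts, than in replicates 2 and 4, a pattern shared by 10.8% of the 14269 tested genes. The exact Poisson 95% interval was 0.706 to 1.16 TPM in replicate 3 and 0.334 to 0.517 in replicate 2, so replicates 2 and 3 differed by more than counting error. In replicate 1 it was 0.494 to 0.920, which overlapped replicate 2 and also replicate 4, at 0.380 to 0.597. The place of replicate 1 in the higher pair is thus within counting error. Against genes of its level, Entpd1 was not called variable (edgeR unadjusted p = 0.294). Marker lists of other cells were mixed in this respect. Of all tested genes, 10.8% were higher and 20% lower in both replicates 1 and 3 on TPM. Not all marker genes passed the filter on low counts: 5 of 8 did for macrophages, 6 of 10 for B cells and 2 of 8 for dendritic cells. Some orders below rest on few counts, such as 8, 2, 1 and 0 for Pax5 and 0, 5, 0 and 5 for Mertk. The shares of tested genes are therefore not a matched background for these lists. In the macrophage and monocyte list, 3 of 8 genes (Adgre1, Fcgr3 and Cd68) were higher in both libraries, 2 were lower, the summed level was 17.8, 14.9, 20.01 and 15.8 TPM in replicates 1 to 4, and Lyz2 was at 0 throughout. In the regulatory T cell list 1 of 8 genes was higher in both and 2 were lower. The higher one was the lineage factor Foxp3, at 2.51, 1.66, 2.09 and 1.50 TPM in replicates 1 to 4 (edgeR unadjusted p = 0.357). The summed level of the list was 1585, 1743, 1740 and 1849 TPM. Most of it was Tnfrsf18 and Il2ra, which activated T cells also express, so the sum does not measure regulatory T cells. In the B cell list 3 of 10 genes were higher in both and 2 were lower. The summed level of that list was 9.38, 6.27, 5.43 and 7.43 TPM in replicates 1 to 4. In the dendritic list 0 of 8 genes were higher in both and 2 were lower. The nuclear RNA Malat1 ran the same way as Entpd1, at 348.0 and 246.0 TPM in replicates 1 and 3 against 63.2 and 59.3 in replicates 2 and 4. The part of these cells, of depth and of RNA composition in the Entpd1 levels was not tested. In RNA from bulk samples, few cells with much Entpd1 RNA and many cells with little cannot be told apart.

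The genes that supply and remove substrate around these enzymes were measured in the same libraries. Among other ectonucleotidases and phosphatases, the most abundant were Entpd6 at 30.9 ± 0.771 TPM and Entpd5 at 12.8 ± 0.823 (SD, n = 4), relatives of Entpd1 that act mainly inside the secretory pathway. Entpd4 and its near-identical copy Entpd4b both had 0 counts, and their levels are uncertain because reads mapping to several places were not counted. Alpl, an alkaline phosphatase that can also dephosphorylate AMP, stood at 3.25, 11.3, 3.25 and 14.8 TPM and was low in replicates 1 and 3. It was the only 1 of 92 tested pathway genes called variable (edgeR goodness of fit, Benjamini-Hochberg adjusted p = 8.68e-20), a call made for 0.463% of all tested genes. Nt5e exceeded Alpl in all 4 libraries.

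Downstream of the enzymes, the adenosine receptor gene Adora2a stood at 104.7, 103.9, 111.7 and 107.1 TPM in replicates 1 to 4, close to the level of Cd226. The nucleoside transporter Slc29a1 stood at 178.4 ± 11.01 TPM and the adenosine kinase Adk at 105.6 ± 8.10 (SD, n = 4). Of the 11 matched genes of adenosine handling, 9 reached 1 TPM in every library, with a median of 19.3 TPM, and none of the 9 tested was called variable by edgeR. Among 11 genes of ATP release and P2 receptors, 7 reached it, led by P2ry10 at 45.6 ± 5.29, the ATP channel Panx1 at 19.1 ± 2.20 and the ATP-gated channel P2rx7 at 13.2 ± 2.34 TPM.

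**Figure D2:**
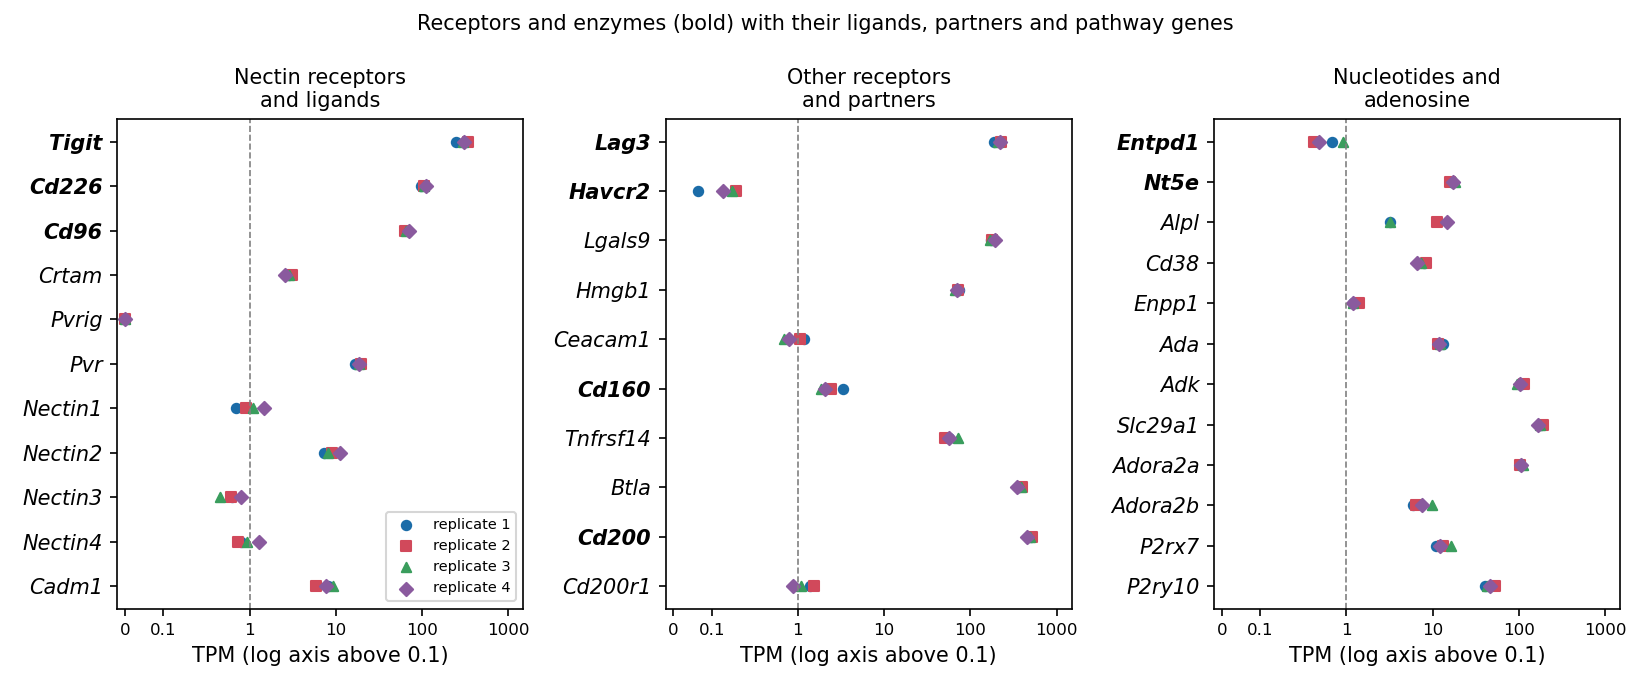
TPM in replicates 1 to 4 of the members (bold) and of ligands, partners and nucleotide pathway genes, on an axis that is logarithmic above 0.1, with a dashed line at 1 TPM. Tigit, Cd226 and Cd96 lie above their ligands, Cd200 lies above Cd200r1, and Lgals9, Tnfrsf14 and Adora2a lie above Havcr2, Cd160 and Entpd1.

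Signalling and regulatory genes linked to the receptors were abundant. All 16 genes of the shedding and proximal signalling list reached 1 TPM in every library, with a median of 122.9 TPM. They were led by the kinase Lck at 756.7 ± 20.99 TPM, the phosphatase Ptpn6 at 580.0 ± 20.9 and the integrin chain Itgal at 445.5 ± 26.2 (SD, n = 4). Of 20 transcription factors associated with exhaustion, 16 reached 1 TPM, led by Bhlhe40 at 752.9 ± 41.4, Nr4a1 at 663.3 ± 39.8 and Irf4 at 527.7 ± 27.8 TPM. Tox, a factor required for exhausted T cells, stood at 25.6 ± 1.32 TPM, while Tox2 was at 0.254 ± 0.103 and Prdm1, which encodes Blimp-1, at 0.0682 ± 0.0784. These 3 were named after their values were seen. Among other ligands and partners, 7 of 15 reached it, led by Btla, Lgals9 and Tnfsf14, the last a Tnfrsf14 ligand at 94.9 ± 8.57 TPM.

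Variation between the 4 libraries was tested over all genes with edgeR by goodness of fit to the dispersion trend, which asks whether a gene spreads more than genes of its level. Of 14269 genes passing the filter on low counts, 66 (0.463%) were called at an adjusted p below 0.05. Of the members, 9 were tested and 0 were called, and 1 of them, Tigit, had an unadjusted p below 0.05, as did 5.69% of all tested genes. Tigit had 6.28, 6.66, 6.45 and 6.53 log2 CPM in replicates 1 to 4, a 1.30-fold range, with replicate 1 lowest. Its edgeR p was 0.0259, or 0.710 after Benjamini-Hochberg adjustment, and the unadjusted value was 0.161 without replicate 1 and 0.198 without replicate 2. The other 8 had unadjusted p between 0.294 for Entpd1 and 0.828 for Cd226 in the same edgeR test. With 1 common dispersion in place of the trend, which ignores that low genes spread more, 6.69% of all genes and 1 member, Entpd1, were called (edgeR adjusted p = 0.0499).

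Cd226 was the steadiest member, with an SD of 0.05 log2 CPM, followed by Lag3, Nt5e and Cd200 at 0.09, Cd96 at 0.10 and Tigit at 0.16 (n = 4). The low genes Cd101, Cd160 and Entpd1 spread more, with SDs of 0.20, 0.41 and 0.50, and the trend for genes of their level was also wider, at coefficients of variation of 19.9%, 24.5% and 29.7% against 5.90% for Lag3. The median SD was 0.10 over the 9 tested members and 0.12 over all tested genes. Tigit and Lag3 had TPM values that rose in the order of the library totals, as did 6.17% of tested genes. With TMM-scaled log2 CPM this held for Tigit and not for Lag3, beside 3.52% of tested genes. Lag3, Tigit and Cd226 were lower in both libraries with fewest counts than in both others, as were 20% of tested genes on TPM and 16.2% on TMM-scaled log2 CPM. On the latter scale Nt5e joined Entpd1 among the 15.5% that were higher there. Between the libraries with high Xist and the other pair, Cd200 and Cd160 were higher in the former, as were 12.6% of tested genes on TPM and 18.2% on TMM-scaled log2 CPM. Nt5e was lower there on TPM, as were 20.9%, but overlapped on TMM-scaled log2 CPM, where 18.2% were lower. Malat1, at the levels given above, parted the libraries in the same way as the totals. The part of depth, of RNA composition and of sex in these orders was not tested.

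**Figure D3:**
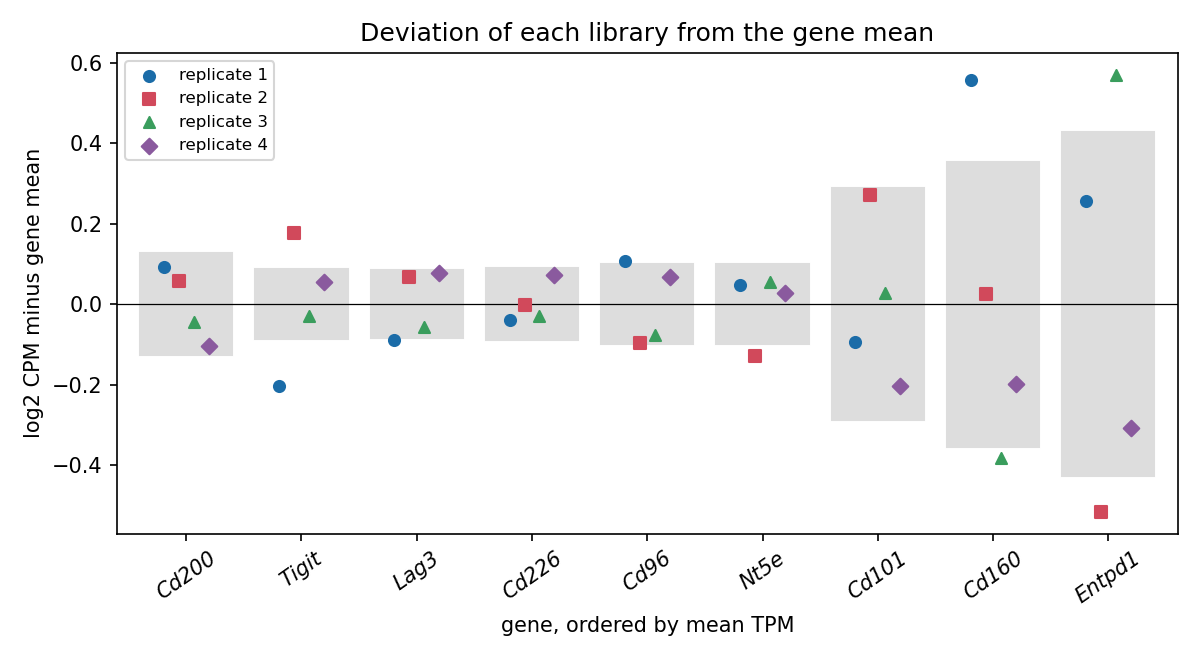
Log2 CPM of each library minus the gene's mean, for the 9 tested members in replicates 1 to 4. Grey boxes show plus and minus the trended coefficient of variation for genes of that level on the log2 scale, and the widest spreads are those of Cd160 and Entpd1, where the boxes are also widest.

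**Figure D4:**
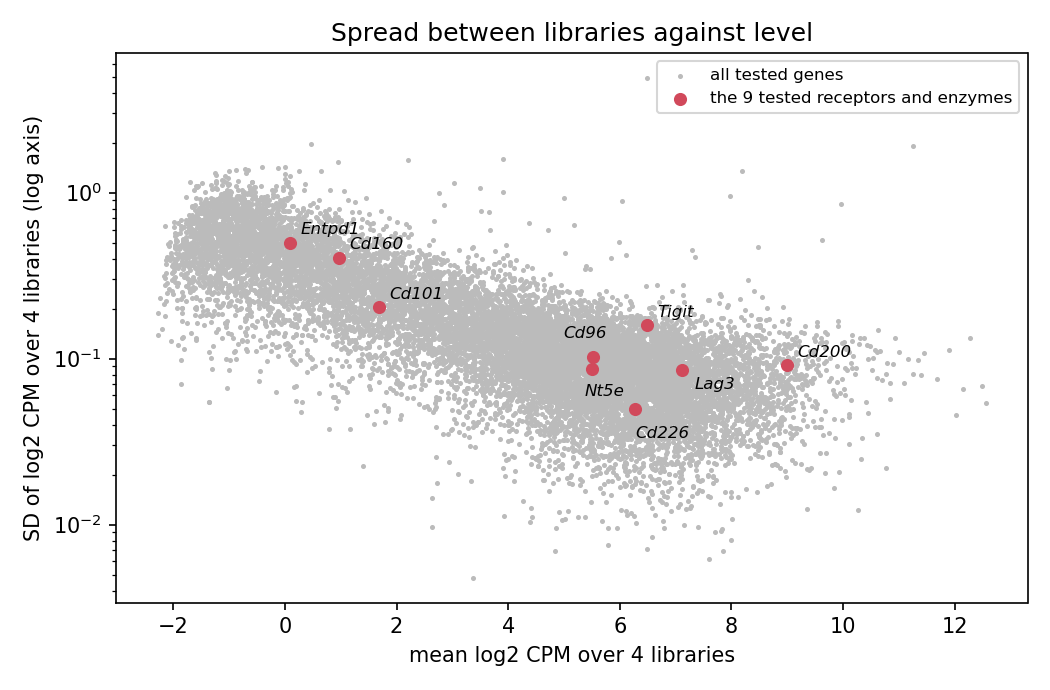
SD of log2 CPM over the 4 libraries (log axis) against mean log2 CPM for all 14269 tested genes (grey) and the 9 tested members (red). The members lie inside the cloud of genes of their level, with Tigit, at an SD of 0.16, towards its upper side.

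Entpd1, the member with the largest SD of log2 CPM, lay 0.26, -0.52, 0.57 and -0.31 log2 from its mean in replicates 1 to 4. The protein-coding genes with the most similar profile, by Euclidean distance between centred log2 CPM over the 4 libraries, were Eda2r at a distance of 0.063, Itgb4 at 0.078 and Tex14 at 0.147. Their mean levels were 3.39, 0.297 and 0.484 TPM. All 3 were, like Entpd1, highest in replicate 3, and likeness over 4 libraries describes these libraries only.

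The RNA levels of the nearest genes differed between the loci. Neighbours here are the nearest protein-coding genes that do not overlap the member, so Pdzk1, which overlaps Cd160 and stood at 0.392 TPM, is not among them. Cd200, Tigit and Cd96 lie on chromosome 16, and all 3 stood above their neighbours. The nearest protein-coding gene on either side of Tigit, Zbtb20 and Drd3, stood at 0.796 and 0.721 TPM, and Gm609, 2714 bases from Cd200, at 0.0253 TPM. Btla, the neighbour of Cd200 on the other side at 129239 bases, stood at 372.8 TPM. Each of the low genes had a higher neighbour on at least 1 side. Tctn3, 132 bases from Entpd1 and on the opposite strand, stood at 13.5 ± 1.43 TPM, Ttf2 and Ptgfrn beside Cd101 at 45.1 and 15.3, Rnf115 and Gpr89 beside Cd160 at 57.5 and 37.99, and Med7 beside Havcr2 at 25.1 TPM. On the other side, Cc2d2b beside Entpd1 stood at 0.149 TPM and Gm12169 beside Havcr2 at 0.0362, both below the member. Around Nt5e, Snx14 stood at 13.9 TPM and Tbx18, 595936 bases away, at 0. Cd226 lay between Rttn at 17.5 TPM and Dok6 at 0.0639, and Cd96 between Plcxd2 at 10.9 and Gm4737 at 2.05.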

How the data were processed

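RNA was measured in 4 libraries of 1 group, biological replicates 1 to 4 per the labels. The deposited files hold unnormalized counts per gene, made by the authors with featureCounts 1.4.6-p4 on GENCODE M13 exons for mm10, per the file headers, with both ends mapped and the reverse strand setting. Reads mapping to several places and reads overlapping several genes were not counted, so genes with near-identical copies are uncertain. Per the file headers the alignments came from STAR, whose version was not given in the sources. Symbols came from GENCODE M21, which matched 50376 of 50600 gene identifiers (99.6%), and promoter stretches from RefSeq.

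CPM and TPM were computed here from counts and exonic length. Variation was tested with edgeR 4.0.16 in R 4.3.3 (filterByExpr, TMM, intercept-only fit, goodness of fit under the trended dispersion, Benjamini-Hochberg at 0.05, prior count of 2 for log2 CPM). On simulated counts with 200 genes raised in 1 library, it recovered 88.5% of genes raised 4-fold (14094 genes tested), 67% raised 2-fold (14077) and 44.5% raised 1.5-fold (14080). Gene pairs were compared as differences of log2(TPM + 0.1) with exact sign-flip tests over libraries, using Python 3.11.15. A count of 0 allows up to 3 counts, which is 0.0858, 0.0252, 0.0710 and 0.0315 CPM in replicates 1 to 4. Alternatives were DESeq2 1.42.0 size factors, total counts, no filter, a common dispersion, a pseudocount of 1, CPM, a threshold of 5 TPM, TPM over protein-coding genes and leaving out each library. The genes, lists and tests were chosen with earlier results of these data known. Named genes were the 10 members, genes of the 14 pairs, the 3 most abundant of each of 9 pathway lists, called genes, the 2 most abundant of each of 9 marker lists, locus neighbours and the 3 genes most like the most variable member. Art2a and Pnp had no match. Xist, Ddx3y, Malat1, Cd8a, Foxp3, Fcgr3, Lyz2, Tox, Tox2, Prdm1, Pvrig, Entpd4, Entpd4b and Pdzk1 were named after their values were seen.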

Additional observations from a re-analysis of the deposited data

Results flagged for a closer look

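Of 71 reported values, each over 4 libraries, 5 had a library set apart by a gap wide for the range, and flags of this kind arise by chance in about 1 in 20, or 3.55 of 71. None of the 5 was the level of a member. Replicate 1 was low for the T cell receptor gene Trac (1755 TPM, with 1926 to 1949 elsewhere), for Irf4 (486.2, with 538.0 to 545.4) and for Il2ra (429.4, with 500.2 to 505.7). These flags are on TPM. With TMM-scaled CPM the highest library was 1.06 times the lowest for Trac and for Irf4, and 1.12 times for Il2ra. Their edgeR unadjusted p-values were 0.975, 0.971 and 0.845. Replicate 1 was also the library in which Tigit, Lag3 and Cd226 had their lowest levels and Cd160 its highest. Havcr2 was lowest there too, but on 2 counts, with an interval of 0.00789 to 0.235 TPM that overlapped the other libraries. The share of all genes that were lowest there was not counted, so these orders cannot be read as particular to the members. In replicate 2, Entpd5 was 14.003 TPM against 12.2 to 12.4. In replicate 4, the log2 difference of Nectin2 minus Pvr was -0.71 against -1.19 to -1.11.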

How the results depend on the processing

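The count of members called variable by edgeR was 0 with TMM, DESeq2 size factors, total counts, no filter on low counts, and without each replicate (lowest 0, highest 0). With a common dispersion it was 1, Entpd1, at an adjusted p of 0.0499, a setting that called 955 of all genes (6.69%) against 66, since it takes no account of the wider spread of low genes. Without replicate 1, 41 genes were called, and leaving out the other libraries in turn gave up to 68. At an unadjusted p below 0.05, edgeR gave 1 member under the trended dispersion. The count of members at 1 TPM or more was 8 without each replicate and 8 with CPM, and 6 at 5 TPM. Of the 14 gene pairs, 13 kept their direction under every alternative run (pseudocount 1, CPM, and each library left out). Lag3 minus Tigit reversed to 0.63 with CPM, which does not scale for length, and lay between -0.54 and -0.47 without each replicate. CPM also moved Cd226 minus Tigit from -1.50 to -0.21, Cd96 minus Tigit from -2.14 to -0.96, Pdcd1 minus Tigit from 0.81 to 1.82, Tnfrsf14 minus Cd160 from 4.58 to 3.38, Cd4 minus Lag3 from 2.22 to 3.15, Nectin2 minus Pvr from -1.05 to -1.85, Nt5e minus Entpd1 from 4.61 to 5.32, Cd200 minus Cd200r1 from 8.56 to 9.20 and Pdcd1 minus Havcr2 from 11.12 to 10.51. A pseudocount of 1 shrank pairs with a low gene, such as Lag3 minus Havcr2 to 7.53 and Nt5e minus Entpd1 to 3.48. Rescaling TPM to protein-coding genes raised the mean level of all 10 members by a like share, for example Cd200 to 527.9, Tigit to 321.3, Lag3 to 226.0, Cd226 to 113.0 and Havcr2 to 0.151 TPM. No paired analysis was possible because the labels give a single group. Depth limits Havcr2 and Entpd1, with 38 and 273 counts over the 4 libraries, and small differences in them were not detectable.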
